A study of Mus musculus with 8 samples.

Results

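The regions described here are the accessible chromatin regions at 10 genes that mark thymic tuft cells: the transcription factor genes Pou2f3 and Gfi1b, the taste transduction genes Gnat3, Plcb2 and Trpm5, the eicosanoid synthesis genes Alox5 and Ltc4s, the cytokine gene Il25, and Dclk1 and Avil, which encode a microtubule-associated kinase and an actin-bundling protein. A region was taken when it overlapped the gene body or the 20 kb on either side of it, with genes placed by GENCODE M21 on mm10. In all, 50 of the 57124 regions met this rule, and each of the 10 genes had at least 1. Regions came from ATAC-seq, in which the transposase Tn5 inserts sequencing adapters into open chromatin, on medullary thymic epithelial cells (mTECs) sorted from the thymus of wild-type BL6N6 mice aged 4 to 6 weeks. The 8 samples form 4 groups of 2 biological replicates: Tspan8neg MHCIIlow, Tspan8neg MHCIIhigh, Tspan8pos MHCIIlow and Tspan8pos MHCIIhigh, with neg and pos for cells without and with the surface protein Tspan8 and low and high for the level of MHC class II. No group was sorted for tuft cells.

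Called peaks had been merged to a single set before deposit, so each region may stem from 1 group or from several, and none of the values below belongs to a group. The per-sample read counts were not used here, because their column names match no sample's labels, and the depth of the samples is not analysed here. In a sorted bulk population, a region opened in few cells and a region opened weakly in many cells cannot be told apart.

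Tuft cells are rare chemosensory epithelial cells, known from the gut and airways and found also in the thymic medulla. Pou2f3 is the transcription factor on which their development depends. They carry the signalling chain of taste receptor cells, in which a receptor activates the G protein gustducin (Gnat3 encodes its alpha subunit), phospholipase C beta (Plcb2) releases calcium and the cation channel Trpm5 opens. Their known products are interleukin 25 and cysteinyl leukotrienes, the latter made through 5-lipoxygenase (Alox5) and leukotriene synthase (Ltc4s).

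A set of 4 regions that hold the octamer bound by POU-family factors is shown first, because the octamer was the only 1 of 4 searched motifs whose share in the 50 regions was several times that in all regions. All sequences are the reference sequence of mm10, read 5′ to 3′ on the strand of the tuft cell gene. Capitals mark every match, on either strand, to the octamer (ATGCAAAT, or ATTTGCAT on the other strand), to an ETS core (GGAAGT), to a KLF box (GGGNGTGG) or to an AP-1 site (TGANTCA). The Pou2f3 intron is given by the last 300 bases of its region in the sense of the gene.
Pou2f3 intron, chr9:43188882-43189181, minus strand: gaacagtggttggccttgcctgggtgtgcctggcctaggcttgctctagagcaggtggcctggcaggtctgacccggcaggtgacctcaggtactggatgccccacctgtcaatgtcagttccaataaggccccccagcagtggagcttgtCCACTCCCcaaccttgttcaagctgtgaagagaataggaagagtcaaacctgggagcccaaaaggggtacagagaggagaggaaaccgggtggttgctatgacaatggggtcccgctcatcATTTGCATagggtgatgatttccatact
Gfi1b promoter, chr2:28622824-28623072, minus strand: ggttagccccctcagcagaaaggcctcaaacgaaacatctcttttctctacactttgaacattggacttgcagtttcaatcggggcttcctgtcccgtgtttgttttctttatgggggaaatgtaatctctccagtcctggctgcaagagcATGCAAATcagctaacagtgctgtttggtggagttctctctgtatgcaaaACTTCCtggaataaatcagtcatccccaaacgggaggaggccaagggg
Trpm5 upstream flank, chr7:143105402-143105600, minus strand: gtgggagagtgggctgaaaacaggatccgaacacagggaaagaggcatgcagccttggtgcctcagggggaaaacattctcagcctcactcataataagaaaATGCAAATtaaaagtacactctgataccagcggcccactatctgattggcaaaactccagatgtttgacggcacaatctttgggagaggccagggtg
Alox5 intron, chr6:116440659-116440906, minus strand: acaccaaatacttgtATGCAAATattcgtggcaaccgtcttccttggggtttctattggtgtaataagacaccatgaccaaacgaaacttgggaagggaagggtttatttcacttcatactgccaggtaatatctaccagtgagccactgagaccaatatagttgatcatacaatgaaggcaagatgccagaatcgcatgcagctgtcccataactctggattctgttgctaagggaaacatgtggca
In the Pou2f3 intron the capitals are a KLF box and an octamer, both on the other strand, and in the Gfi1b promoter an octamer followed by an ETS core on the other strand. The Trpm5 and Alox5 sequences hold an octamer alone.

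A second set shows 2 narrow promoter regions, those of Trpm5 and Avil, and the regions nearest to the starts of Gnat3 and Il25, which have none at their promoters. The Avil sequence stops at the base before the transcription start, and the Il25 sequence is the central 300 of 339 bases.
Trpm5 promoter, chr7:143094886-143094957, minus strand: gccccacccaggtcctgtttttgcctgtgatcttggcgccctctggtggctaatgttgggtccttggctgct
Avil promoter, chr10:127000561-127000708, plus strand: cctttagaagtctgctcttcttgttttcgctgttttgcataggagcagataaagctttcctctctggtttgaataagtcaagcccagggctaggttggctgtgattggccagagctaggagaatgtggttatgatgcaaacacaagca
Gnat3 upstream, chr5:17961290-17961392, plus strand: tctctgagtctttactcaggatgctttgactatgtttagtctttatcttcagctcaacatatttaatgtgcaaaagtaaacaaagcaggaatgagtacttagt
Il25 upstream, chr14:54929912-54930211, plus strand: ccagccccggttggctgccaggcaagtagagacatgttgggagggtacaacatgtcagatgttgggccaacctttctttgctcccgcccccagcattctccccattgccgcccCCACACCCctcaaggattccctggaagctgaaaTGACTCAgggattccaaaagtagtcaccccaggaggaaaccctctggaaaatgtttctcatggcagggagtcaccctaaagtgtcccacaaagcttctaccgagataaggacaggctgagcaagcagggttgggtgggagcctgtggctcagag
The Trpm5, Avil and Gnat3 sequences hold no match to the 4 motifs. In the Il25 sequence the capitals are a KLF box on the other strand and an AP-1 site.

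**Figure D1:**
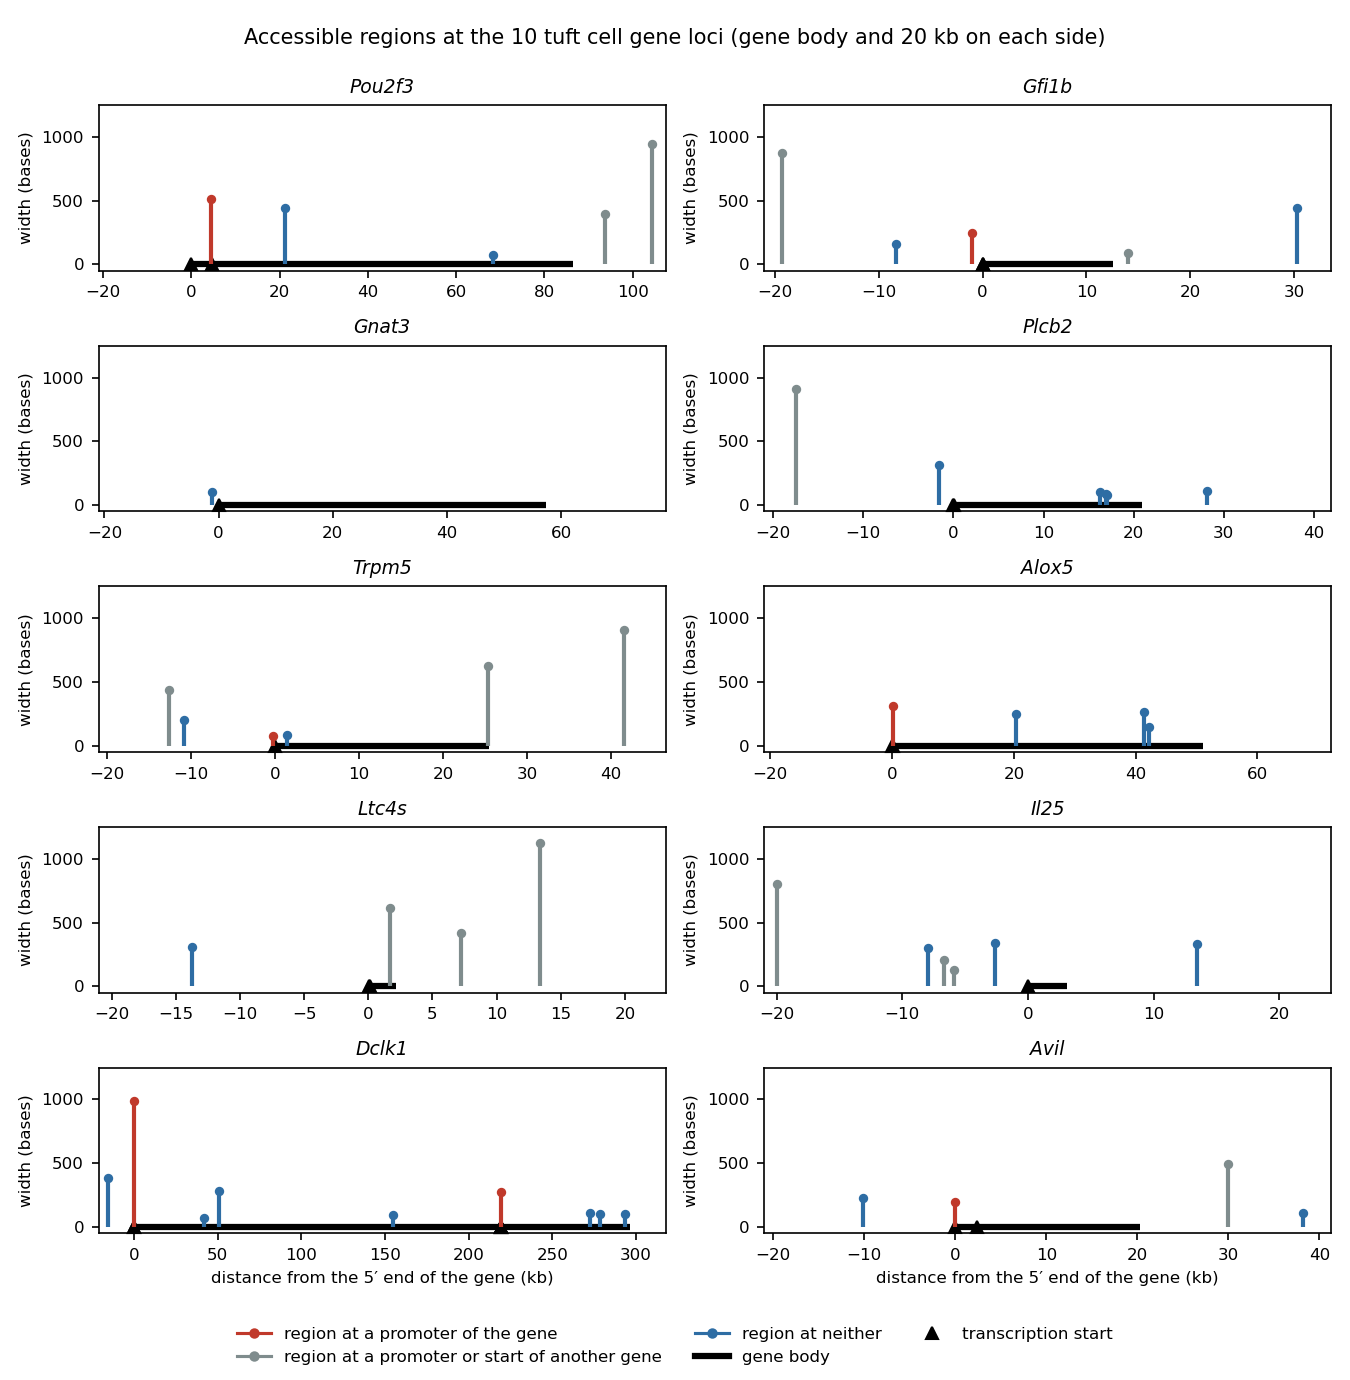
Accessible regions at the 10 loci, each drawn from 20 kb before to 20 kb after the gene in the sense of transcription, with the distance from the 5′ end of the gene in kb on the horizontal axis and the width of each region in bases on the vertical axis. Dclk1 has 9 regions and Gnat3 has 1, and the widest regions, apart from the outer Dclk1 promoter region, lie at starts of other genes (grey).

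A region counted as a promoter region of a gene when its centre lay no more than 1000 bases before, and no more than 100 bases after, an annotated start. Pou2f3, Gfi1b, Trpm5, Alox5, Dclk1 and Avil had one, and Gnat3, Plcb2, Ltc4s and Il25 had none. Thus 6 of 10 tuft cell genes had a promoter region (60.0%, 95% Wilson interval 31.3% to 83.2%), against 48.6% of the 21938 protein-coding genes (10664 genes). The interval, which covers counting error over genes only, includes the background, so the share of tuft cell genes did not differ detectably from that of all genes. The member nearest to the limit on the inside was Gfi1b, with a centre 966 bases upstream, and the nearest on the outside was Gnat3, with a centre 1208 bases upstream.

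Both transcription factor genes had a promoter region. At Pou2f3 the region chr9:43205606-43206120 was 515 bases wide, covered the inner of the 2 annotated starts and had its centre 108 bases upstream of it. The outer start, at position 43210369, had no region, and the nearest centre lay 4506 bases downstream of it. The gene body held 2 further regions, both intronic: 1 of 440 bases with its centre 16653.5 bases downstream of the inner start, which holds an octamer and 3 KLF boxes, and 1 of 71 bases, the narrowest of the 50. The other 2 regions in the Pou2f3 window, of 398 and 948 bases, lay beyond the 3′ end at the promoters of Tmem136 and Arhgef12.

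At Gfi1b, which encodes a zinc finger repressor, the region nearest to a start was chr2:28622824-28623072, of 249 bases. Its centre lay 966 bases upstream of 1 annotated start and 1003 bases upstream of the other, outside the promoter limit for the latter, and neither start was itself covered. The octamer in it was centred 935.5 bases upstream of the nearest start, and the ETS core followed 886.5 bases upstream. No region lay in the Gfi1b gene body. Of the other 4 regions, 1 of 160 bases lay in intergenic sequence 8318.5 bases upstream, 1 of 873 bases lay at the promoter of Tsc1, and 2 lay downstream of the gene, of 86 and 443 bases.

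Among the 3 taste transduction genes, Trpm5 alone had a promoter region. It was 72 bases wide, the narrowest of the 7 promoter regions of tuft cell genes, with its centre 279.5 bases upstream, and it did not cover the start. An 83-base intronic region followed with its centre 1471 bases downstream of the start. The octamer of the Trpm5 locus lay farther out, in a 199-base intergenic region 10859 bases upstream of Trpm5, but that region is closer to Kcnq1, the start of which is 1753 bases away. The remaining 3 regions, of 435, 624 and 906 bases, lay at Kcnq1, Tssc4 and Cd81.

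The Plcb2 window held 6 regions, none with its centre inside the promoter limits. The nearest, chr2:118729936-118730250, was 315 bases wide and lay 1655 bases upstream of a start. In the gene body, 3 regions of 82, 89 and 103 bases stood close together over exons. The other 2 were a 914-base region over the start of Inafm2 and a 106-base region over Ankrd63. With the comprehensive annotation, which adds transcripts to the basic set, Plcb2 also had a promoter region.

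Gnat3 had the emptiest window, with 1 region of 103 bases in 97286 bases. This region, printed above, lay 1208 bases upstream of the start, and no region lay in the gene body. Its GC content was 34.0%, the lowest of the 50.

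Of the 2 eicosanoid genes, Alox5 had a 308-base promoter region, chr6:116460954-116461261, which covered both annotated starts. Its other 3 regions, of 147, 248 and 264 bases, were all intronic, and Alox5 was the gene of the nearest protein-coding start for each of its 4 regions. The 248-base region, centred 20241.5 bases downstream of a start, holds the Alox5 octamer. No region at Alox5 lay at another gene.

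Ltc4s is a short gene of 2156 bases, and none of its 4 regions was at its own promoter. The nearest, chr11:50236613-50237224, was 612 bases wide and had its centre 1552.5 bases downstream of a start. It overlaps Ltc4s exons and at the same time the promoter and an exon of the antisense gene Gm26542. ATAC-seq has no strand, so this region cannot be assigned to either gene. The 1125-base region at the Mgat4b promoter was the widest of the 50. A 421-base region lay inside Mgat4b, at the promoter of a microRNA gene, and a 308-base region 13797.5 bases upstream was 64.6% repeat-masked, the highest share of the 50.

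Il25 had no region within its gene body or promoter. The nearest, chr14:54929893-54930231, of 339 bases, lay 2633 bases upstream in intergenic sequence and held the KLF box and the AP-1 site printed above, centred 2666.5 and 2634 bases upstream of the start. Of the 5 regions upstream of Il25 it was the only one nearer to Il25 than to another protein-coding start. Of the others, 3 lay at Efs (127, 203 and 301 bases), and an 800-base region covered a start of Slc22a17. The sixth region, of 332 bases with an AP-1 site, lay downstream over Myh6.

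Dclk1 was the only tuft cell gene with 2 promoter regions, chr3:55241788-55242776 of 989 bases and chr3:55461671-55461945 of 275 bases. The wide region covered the 2 starts at the 5′ end of the gene, and the narrow region covered 4 of the 5 starts of the short transcripts that begin inside the gene. All 7 annotated Dclk1 starts thus had a promoter region. An AP-1 site lay in each, centred 400 bases upstream of the nearest start in the wide region and 17 bases upstream of the nearest start in the narrow one. Of the other 7 regions, 1 of 381 bases lay 15201 bases upstream, and 6 lay in the gene body with widths of 73, 91, 97, 98, 108 and 283 bases.

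Avil, a member of the villin family, had a 198-base promoter region, chr10:127000561-127000758, with its centre 49.5 bases upstream of the first start, which it covered. The second start, at position 127003135, had no region. No other region lay within the Avil gene body. The flanks held 3 regions, of 109, 228 and 497 bases, all overlapping other genes, and the widest of them covered a start of Tsfm.

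Counted by start rather than by gene, 13 of the 22 annotated starts of the tuft cell genes had a promoter region, and 10 lay inside a region. Dclk1 alone held 7 of the 22 starts, and its 2 promoter regions served all 7. The share over the starts of all genes was not computed, so these counts have no background. The median width of the 7 promoter regions was 275 bases, with a range of 72 to 989 bases. Promoter regions of all protein-coding genes had a median width of 509 bases (quartiles 324 and 722). Of the 7 tuft cell promoter regions, 5 were at or below the lower quartile (Gfi1b, Trpm5, Alox5, Avil and the inner region of Dclk1), and 2 were above the median (Pou2f3 and the outer region of Dclk1). Such narrow promoter regions were not particular to tuft cell genes. Among the mTEC markers listed further below, those of Epcam, Krt14, Krt8, Trp63 and Aire were also below the lower quartile, and those of the others were wider. The width of a merged region also reflects how peaks were called and joined, the part of which was not tested.

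The 4 genes without a promoter region all had a region close by. Their nearest centres were 1208 (Gnat3), 1552.5 (Ltc4s), 1655 (Plcb2) and 2633 bases (Il25) from a start, so 4 of 4 had a region centre within 5 kb. Of the 11274 protein-coding genes without a promoter region, 39.1% had one, and the median distance was 11643 bases. The limit of 5 kb was chosen after these distances had been seen, and 4 genes are few. Il25, Plcb2 and Gnat3 had their nearest region upstream, and Ltc4s downstream.

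**Figure D2:**
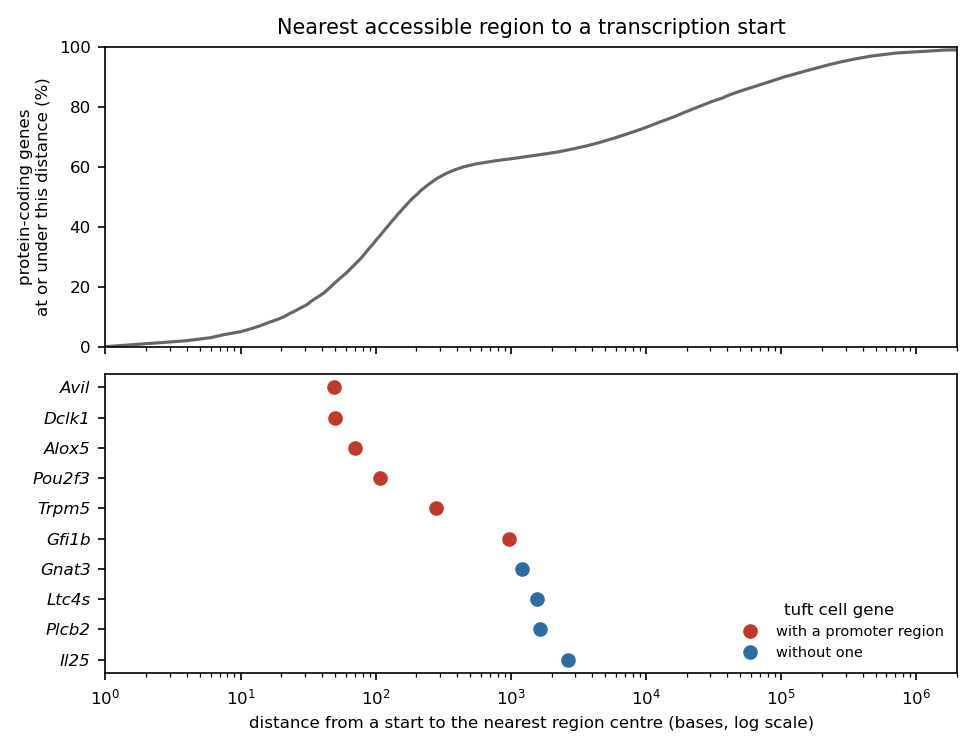
The upper panel gives the percentage of all protein-coding genes whose nearest region centre lies at or under the distance on the horizontal axis (bases, log scale), and the lower panel gives that distance for each of the 10 tuft cell genes. The genes with a promoter region (red) range from 49.5 bases (Avil) to 966 bases (Gfi1b), and those without (blue) from 1208 bases (Gnat3) to 2633 bases (Il25).

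The starts of the tuft cell genes were poor in CpG dinucleotides. The ratio of observed to expected CpG in the bases within 500 of a start, taken at the highest of a gene's starts, was at most 0.56 (Pou2f3), whereas the median of protein-coding genes was 0.61. When protein-coding genes were divided into 3 equal classes by this ratio, a division made after the values had been seen, 7 tuft cell genes fell into the low class, 3 into the middle class and 0 into the high class. In the low class, Gfi1b, Trpm5 and Avil had a promoter region and Gnat3, Plcb2, Ltc4s and Il25 did not, so 3 of 7 had one, against 9.76% of the 7313 genes of that class. This count depends on the promoter rule. Under overlap with the start itself, Avil alone of these 7 had one, and with regions of at least 200 bases, Gfi1b alone. The share of the low class under those rules was not computed. In the middle class all 3 genes (Pou2f3, Alox5 and Dclk1) had one, against 61.1%. The background of 48.6% over all genes thus combines classes with very different shares, and the low class held most of the tuft cell genes.

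Density of regions differed widely among the loci. It ranged from 1.03 regions per 100 kb of window at Gnat3 to 13.9 at Il25, with 2.67 at Dclk1, 3.96 at Pou2f3, 4.39 at Alox5, 6.64 at Avil, 9.16 at Trpm5, 9.49 at Ltc4s, 9.52 at Gfi1b and 9.85 at Plcb2. The median of the 10 was 7.90, and that of all protein-coding genes was 3.86 (quartiles 1.5 and 6.88). All but Gnat3 and Dclk1 were above this median. The counts at the densest loci include regions at neighbouring genes, as given above.

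**Figure D3:**
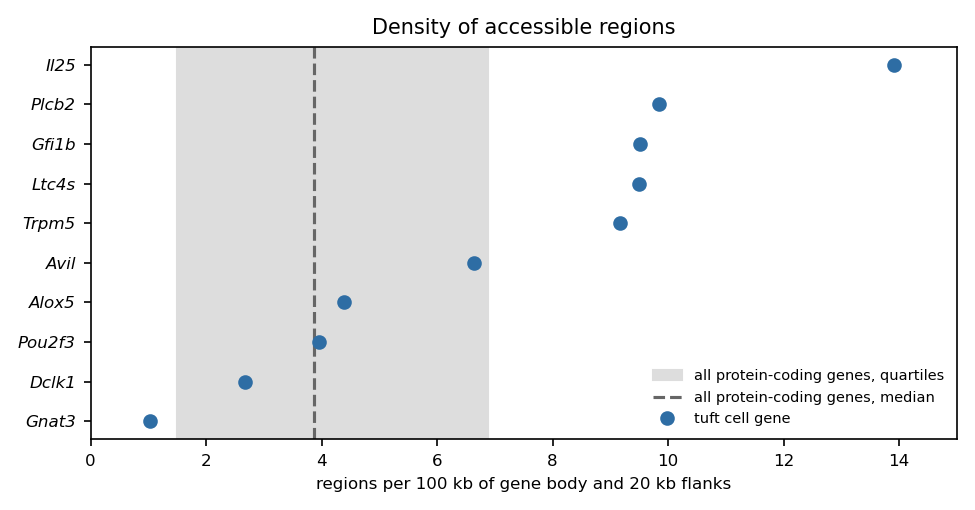
Regions per 100 kb of gene body and 20 kb flanks for the 10 tuft cell genes (points), with the median (dashed line) and the quartiles (grey band) of all protein-coding genes. Il25, Plcb2, Gfi1b, Ltc4s and Trpm5 lie above the band and Gnat3 lies below it.

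Of the 50 regions, 7 lay at the gene's own promoter, 11 at the promoter of another gene (8 of these at a protein-coding gene) and 4 more over the start of another protein-coding gene (Inafm2, Cd81, Slc22a17 and Tsfm). The remaining 28 were at no promoter or start. Of those 28, 15 lay in a gene body, 9 in the upstream flank and 4 in the downstream flank, their median width was 153.5 bases, and 14 were closest to the tuft cell gene among protein-coding starts. The regions at other genes' promoters had a median width of 435 bases and a median GC content of 68.9%, compared with 275 bases and 57.5% for the promoter regions of the tuft cell genes.

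By the position of their centre, 36.0% of the 50 regions were annotated as promoter, 14% as exon, 36.0% as intron and 14% as intergenic, compared with 21.9%, 8.36%, 40.2% and 29.6% of all regions. The median width was 269.5 bases in the 50 and 212 bases in all regions. Windows around genes exclude most intergenic sequence, so these shares differ in part by construction. Regions under 100 bases numbered 10 of the 50 and made up 17.1% of all regions.

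Motif matches were counted in the central 200 bases around each region's centre. The octamer was present in 3 of the 50 regions (6.0%, Wilson interval 2.06% to 16.2%), against 1.59% of all regions. One of these, at the intronic 83-base region of Trpm5, lay in the window but outside the region itself, and the others were the Gfi1b promoter and the Trpm5 upstream flank. The ETS core was present in 6 (12%, against 16.1%), the KLF box in 7 (14%, against 10.7%) and the AP-1 site in 5 (10.0%, against 18.5%). For the ETS core, the KLF box and the AP-1 site the interval included the share in all regions, and for the octamer its lower bound lay above it. With 3 regions behind it, of which those at Trpm5 share a window, the octamer share rests on few matches. The 50 regions are not independent of one another, so the interval cannot decide whether the octamer share differs from that in all regions.

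Over the whole region, the octamer was present in 5 of 50 (10.0%, against 1.95% of all regions), at Pou2f3 (2 regions), Gfi1b, Trpm5 and Alox5. The regions differ in width from the set as a whole. Among regions within 10% of the width of each, a comparison chosen after the matches had been seen, the mean share with an octamer was 1.99%. For the ETS core 9 regions had a match (18.0%, against 20.9%), for the KLF box 9 (18.0%, against 16.5%) and for the AP-1 site 7 (14%, against 21.3%). No match to the octamer was found at Gnat3, Plcb2, Ltc4s, Il25, Dclk1 or Avil. Of the 5 regions with an octamer, 2 were promoter regions, 2 lay in introns and 1 in intergenic sequence. A match is a string in the reference sequence, and no factor binding was measured.

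**Figure D4:**
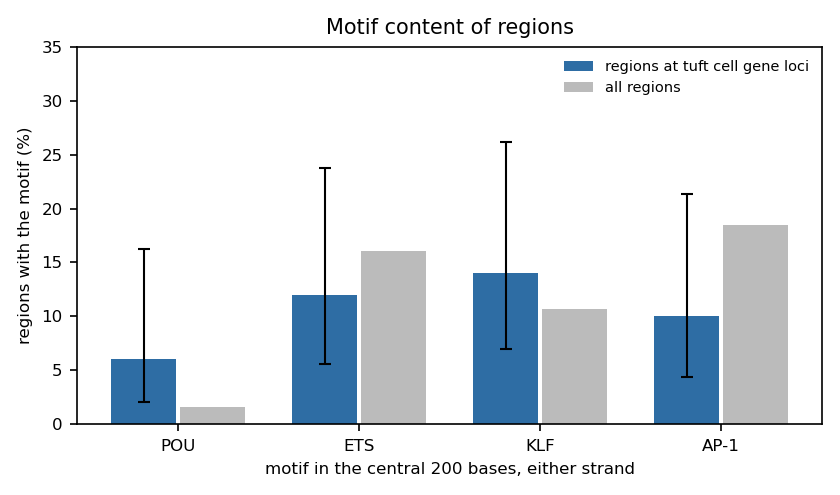
Percentage of regions with each motif on either strand of the central 200 bases, for the 50 regions at tuft cell gene loci (blue, with 95% Wilson intervals) and for all 57124 regions (grey). The octamer (POU) is the rarest motif in both, at 6.0% and 1.59%.

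RefSeq promoters on GRCm38, from 250 bases before to 50 after a start, were available for 8 of the genes (9 promoters). None held the octamer, which occurs in 1.74% of the 32851 promoters of the table. Pou2f3, which has an octamer in its promoter region, and Il25 had no entry. The Gfi1b octamer lies farther upstream than these limits. The search thus did not cover the octamers of the promoter regions described above. The ETS core was found at Ltc4s and Plcb2 (23.8% of all), the KLF box at Avil and Plcb2 (17.6% of all), and an AP-1 site at Dclk1 (7.81% of all).

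A further 33 genes known from tuft cells were examined by role. A promoter region was present at 16 of them (48.5%, Wilson interval 32.5% to 64.8%), a share close to the 48.6% of all protein-coding genes. Their median CpG ratio was 0.35, near the 0.36 upper limit of the low CpG class, in which 9.76% of genes had one. The ratios of the 33 ranged from 0.087 (Spib) to 1.02 (Hipk2). Of the 16 genes with a promoter region, only Spib, Tas1r1, Tas2r138, Gnb3 and Pla2g4a fell into the low class. Neither the 48.6% nor the 9.76% is thus a background matched to the 33 genes. Among 5 transcription factor genes, Hmx2, Hmx3 and Spib had one. For Ascl2 and Sox4 the nearest centres lay 469.5 and 293.5 bases from a start but outside the promoter limits. A start of Sox4 was itself covered by a region, and no start of Ascl2 was. Among 8 taste transduction genes, Tas1r1 (an umami receptor subunit), the bitter receptor gene Tas2r138, the G protein subunit genes Gng13 and Gnb3, and Itpr3, which encodes a calcium release channel, had one. Their widths were 811 bases at Tas1r1, 238 at Tas2r138, 151 at Gng13, 77 at Gnb3, and 201 and 461 for the 2 regions at Itpr3. The Tas1r1 region was centred 788 bases upstream of the nearest start. Overlap of the regions at the further genes with starts of neighbouring genes is not reported here. Tas1r3, Tas2r118 and Rgs13 had none, and the nearest centres lay 6129, 3925 and 33786 bases away.

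Of 4 eicosanoid genes, Hpgds, which encodes a prostaglandin D synthase, and Pla2g4a, which encodes a phospholipase that releases arachidonic acid, had promoter regions of 503 and 86 bases. The nearest centre at Alox5ap, the partner of 5-lipoxygenase, lay 1159.5 bases from a start, and that at the cyclooxygenase gene Ptgs1 131.5 bases. Of 6 receptor genes, Il17rb, a subunit of the interleukin 25 receptor, and Il13ra1 had promoter regions of 411 and 548 bases. Nearest centres lay 110 bases away at Il4ra, 1071 at the succinate receptor gene Sucnr1, 3862 at Ffar3 and 23333.5 at Siglecf. Among the signalling and structural genes, Krt18, Reep5 and Hipk2 had promoter regions. Sh2d6, Sh2d7, Bmx, Vil1, Tuba1a and Chat had none, with nearest centres from 276.5 bases (Tuba1a) to 16303 bases (Chat). At Ptgs1, Il4ra and Tuba1a a region covered a start, but its centre lay outside the promoter limits.

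Marker lists of mTECs and of blood cells were read in the same way. All 12 mTEC markers had a promoter region (Epcam, Krt5, Krt14, Krt8, Foxn1, Pax1, Pax9, Trp63, Tnfrsf11a, Cd40, H2-Ab1 and Aire). Of 30 blood cell markers, 1 had one: Cd68, with a region of 232 bases (3.33%, Wilson interval 0.591% to 16.7%). The blood cell markers had a median CpG ratio of 0.20 and the mTEC markers of 0.37, and the interval for the blood cell markers includes the 9.76% of the low CpG class. The counts were 0 of 10 for thymocytes, 1 of 8 for myeloid cells, 0 of 6 for mast cells and basophils and 0 of 6 for erythroid cells and megakaryocytes. Gfi1b, Alox5, Ltc4s and Plcb2 are also expressed in blood cells. The part of such cells in the regions at these 4 genes was not tested.

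**Figure D5:**
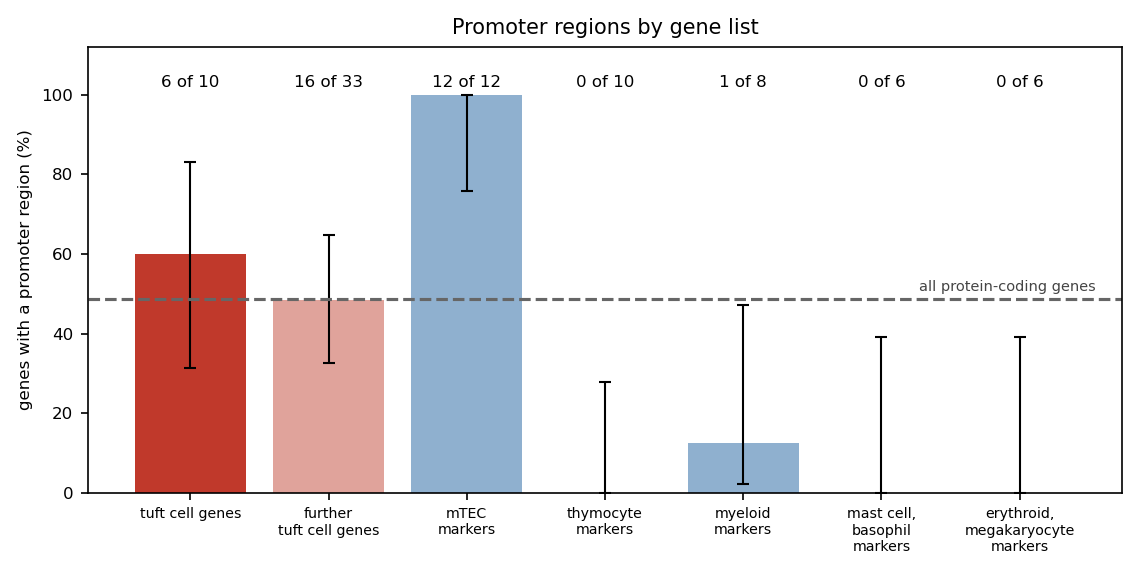
Percentage of genes with a promoter region for the tuft cell genes, the further tuft cell genes and the marker lists, with 95% Wilson intervals and the count above each bar, and the 48.6% of all protein-coding genes as a dashed line. The tuft cell lists lie between the mTEC markers (12 of 12) and the blood cell lists (1 of 30).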

How the data were processed

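ATAC-seq regions of 8 mTEC samples were used. The authors aligned reads to mm10 with Bowtie2, removed mitochondrial, multimapping and low-quality reads with SAMtools and duplicate reads with Picard, ran MACS2 in its broad mode, joined the peaks with bedtools and counted reads with featureCounts 2.0.3. The sources do not say if peaks were called sample by sample. From the deposited table, the position and width of each region in bases were read (not normalized, of no sample). The 8 count columns match no sample's labels and were not used, so no groups were compared, no test was run, and sample depth was not analysed here. Multimapping removal lowers the number of regions in repeated sequence.

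Genes, starts and classes came from the basic set of GENCODE M21, and sequence from GRCm38. All 10 tuft cell genes and their regions are named, as are the fixed lists of further tuft cell genes, with neighbours by position. Of these, 1 further gene and 1 promoter sequence are not reported here, and stay in the counts. The members and lists were chosen with earlier results of these data known. Shares carry 95% Wilson intervals (statsmodels 0.14.6), which cover counting error only. Motif and overlap code (Python 3.11.15) was tested on simulated data. Alternatives varied the flank, the promoter limits, the annotation, the minimum width and the motif window. RefSeq promoter sequences on GRCm38 were searched for the same motifs.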

Additional observations from a re-analysis of the deposited data

How the results depend on the processing

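The number of regions at the 10 loci follows the flank: 29 regions with a flank of 5 kb, 36 with 10 kb, 50 with 20 kb and 84 with 50 kb. With regions of at least 200 bases only, 30 remained at 20 kb. Tuft cell genes with a promoter region numbered 6 under any overlap within 1000 bases of a start (63.1% of all genes), 4 under overlap with the start itself (56.4%), 7 with the comprehensive annotation (55.6%), 6 with coding transcripts (48.4%) and 4 with regions of at least 200 bases (44.4%). For the further tuft cell genes these counts were 22, 16, 18, 16 and 12 of 33. Within the central 500 bases, the ETS core was present in 26.0% of the 50 regions (32.7% of all), the KLF box in 28.0% (22.3% of all), the octamer in 14% (3.19% of all) and the AP-1 site in 14% (27.2% of all). For the AP-1 site the share in all regions lies above the Wilson interval of 7 in 50 regions (6.95% to 26.2%) there, but inside the interval in the central 200 bases. Of 26 alternatives, 21 stayed within 1.5 times the reported count or within its interval. This rule takes no account of the share in all genes or regions, and a fall from 6 to 4 tuft cell genes with a promoter region met it. No paired analysis was possible because no column of read counts could be tied to a sample or replicate, and for the same reason no replicate could be left out. Without depth per sample, a missing region cannot be told from one below the peak caller's limit.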
